A study of Mus musculus with 21 samples.

Results

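Hox genes and the TALE homeobox gene Meis1 were followed by their transcript levels in blood progenitors of mice with a homozygous Etv6 mutation and of wild-type mice. The set was chosen by symbol: Hoxa5, Hoxa7, Hoxa9, Hoxa10, Hoxb4, Hoxb5 and Meis1. Of these 7 genes, 6 had a row among the 11628 genes of the deposited table, and all 6 passed the filter on low values. Hoxb4 was not analysed here. HOX proteins are homeodomain transcription factors encoded in ordered chromosomal clusters, and they bind DNA together with TALE homeodomain partners of the PBX and MEIS families. In bone marrow, Hoxa and Hoxb genes and Meis1 are known for high activity in stem cells and early progenitors and for being shut down as blood cells mature, and persistent Hoxa9 and Meis1 activity is a known feature of several leukaemias.

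The mutant mice carried a homozygous germline mutation of Etv6, labelled ETV6 mt/mt and written h.P214L in the design text. Etv6 encodes a transcriptional repressor of the ETS family. All cells of these mice carry the mutation, and the other group was labelled wild type. Each of 3 bone marrow populations, sorted by flow cytometry, gave 4 mutant and 3 wild-type libraries, 21 in all, from mice aged 10 or 12 weeks of both sexes, with no treatment named. Haematopoietic stem cells (HSC) lacked lineage markers, FLK2 and, as labelled, CD38, and carried cKit, Sca1 and CD150. Multipotent progenitors with lymphoid bias (MPP4) were also lineage-marker negative and carried FLK2 beside cKit and Sca1. Common lymphoid progenitors (CLP) lacked lineage markers, had low cKit and Sca1, and were positive for FLK2 and for what the label writes as IL7. Values are RPKM, reads scaled to transcript length and to the mapped reads of a library. The transcript lengths used are not given, so levels of different genes can be set side by side only roughly.

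Of the gate markers, Flt3, Slamf1 and Il7r were checked here, and they followed the labels. Flt3, which encodes FLK2, had 349 to 416 RPKM in MPP4 and 10.7 to 17.5 RPKM in HSC. Slamf1, which encodes CD150, had 0.335 to 3.20 RPKM in MPP4 and 18.8 to 29.1 RPKM in HSC, and Il7r had 81.1 to 104 RPKM in CLP and at most 15.3 RPKM in MPP4. The Etv6 transcript itself was close in both genotypes, at 81.1 to 88.8 RPKM in mutant MPP4 and 84.3 to 95.6 RPKM in wild-type MPP4. A missense change need not alter the RNA level, so the genotype labels cannot be checked in this way. Sequencing depth is unknown, because the table holds no counts; RPKM summed to between 337818 and 376135 per library.

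Of the 6 genes, 4 lie together on chromosome 6 of GRCm38 (mm10), all on the minus strand, in GENCODE M21. Hoxa5 spans chr6:52201754-52204587, Hoxa7 spans chr6:52214491-52221854, Hoxa9 spans chr6:52223100-52231089 and Hoxa10 spans chr6:52231197-52240854. Hoxb5 lies in the Hoxb cluster on the plus strand at chr11:96303336-96306121, and Meis1 lies on the minus strand of the same chromosome at chr11:18879817-19018985. Transcripts of other genes share some of these spans. Hoxa5 and Hoxa7 overlap the antisense gene Hoxaas3, Hoxa5 also lies inside the span of Hoxa3, Hoxb5 overlaps the antisense gene Hoxb5os, Hoxa9 contains Mir196b, and Meis1 contains the antisense genes Gm16140 and Gm16141. The cDNA kit does not mark strand, so reads of a gene and of its antisense partner cannot be told apart.

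The start-site sequences of Meis1 and Hoxa9 are shown because these were the members whose mutant and wild-type values did not overlap in MPP4, and because the mutated protein is an ETS factor, a family that binds a GGAA core. Each is the 250 bases before the RefSeq start site on GRCm38.p6, read 5′ to 3′ on the gene's own strand, from chr11:19018970-19019219 (minus) for Meis1 and chr6:52227371-52227620 (minus) for Hoxa9. Capitals mark CCGGAAG and AGGAAG on either strand.
Meis1: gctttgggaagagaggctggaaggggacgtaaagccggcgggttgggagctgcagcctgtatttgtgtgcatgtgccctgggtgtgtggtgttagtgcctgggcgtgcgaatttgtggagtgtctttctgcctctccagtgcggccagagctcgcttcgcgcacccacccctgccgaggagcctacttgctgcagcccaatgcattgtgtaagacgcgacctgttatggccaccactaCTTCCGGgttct
Hoxa9: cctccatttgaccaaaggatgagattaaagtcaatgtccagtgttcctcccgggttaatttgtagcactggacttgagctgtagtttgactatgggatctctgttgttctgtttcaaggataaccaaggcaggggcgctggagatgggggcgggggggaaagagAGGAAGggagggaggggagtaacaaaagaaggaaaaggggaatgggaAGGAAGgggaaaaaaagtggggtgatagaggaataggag
The Meis1 window held CCGGAAG on the opposite strand, beginning 12 bases before the start site. The last 16 bases of this window, which include the marked stretch, are exonic in a GENCODE transcript of Meis1 that starts further upstream. The Hoxa9 window held AGGAAG beginning 86 and 39 bases before the start site and no CCGGAAG, and all 250 bases are intronic in 2 of the 5 GENCODE transcripts of Hoxa9. Over all 32851 RefSeq promoter windows of the same length, 6.91% held CCGGAAG and 29.5% held AGGAAG on either strand. RefSeq gave windows for 5 of the 6 genes, 6 windows in all with a pair for Hoxa10. CCGGAAG stood in 1 of the 6 and AGGAAG in 2 of the 6, where the second was a Hoxa10 window. The MEIS core TGACAG, present in 15.9% of all windows, and the PBX and HOX composite TGATTNAT, present in 2.83%, stood in 0 of the 6 windows. These letters describe the sequence and say nothing of binding in these cells.

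The 6 genes followed different patterns across the populations. Meis1, Hoxb5 and Hoxa10 were highest in HSC and decreased, Hoxa9 was highest in MPP4, and Hoxa7 varied little. Hoxa5 was lower in MPP4 than in HSC, with a call in wild-type cells, and did not differ detectably between MPP4 and CLP. In the step between HSC and MPP4, limma on log2(RPKM + 1), with Benjamini-Hochberg adjustment over 11496 genes and a threshold of 0.05, called 4 of 6 members in mutant cells and 5 of 6 in wild-type cells. In mutant cells 3 members were lower in MPP4, where 23.1% of all tested genes were lower, and 1 was higher, where 16% of all tested genes were higher. In wild-type cells 4 members were lower, against 23.3% of all tested genes, and 1 was higher, against 16.1%. Leaving out any 1 library of the groups compared gave 3 to 4 calls in each genotype. In the step between MPP4 and CLP, 3 of 6 members were lower in CLP in each genotype, against 16.4% of all tested genes in mutant and 8.38% in wild-type cells. In each genotype 0 members were higher, beside 904 of the 11496 tested genes in mutant and 548 in wild-type cells. RNA came from bulk cells, so fewer cells that express a gene and less RNA per cell cannot be told apart.

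**Figure D1:**
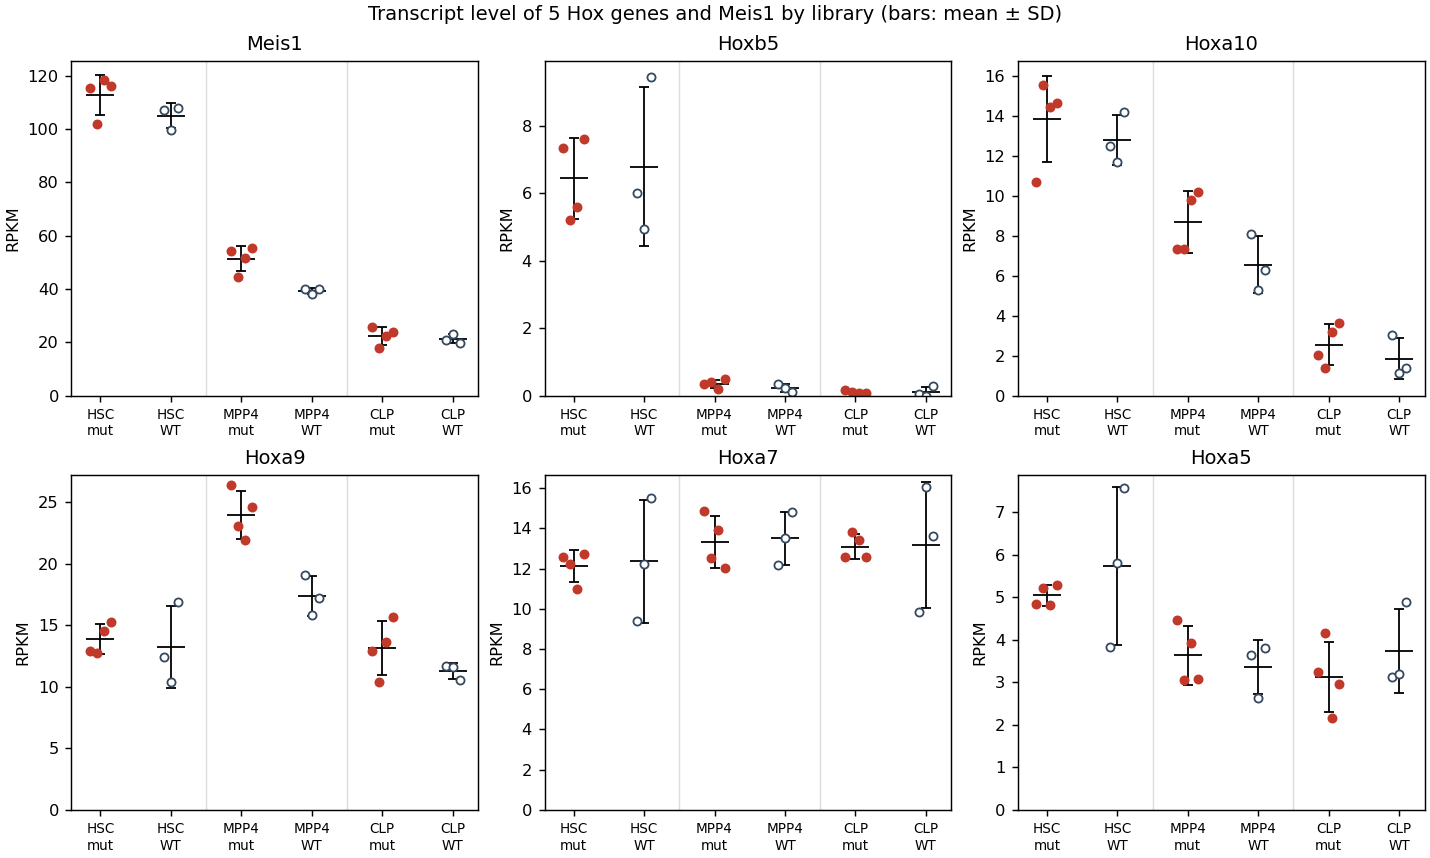
Level of each gene (RPKM, y axes from 0) in every library, by population and genotype, with filled points for mutant (mut) and open points for wild-type (WT) libraries and bars for the mean ± SD. Meis1 and Hoxa10 step down through all 3 populations, Hoxb5 is near 0 outside HSC, Hoxa9 peaks in MPP4 at 24.0 RPKM in mutant and 17.4 RPKM in wild-type cells, and Hoxa7 stays between 9.37 and 16.1 RPKM.

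Meis1, the TALE partner of HOXA9 that mouse stem cells need for their maintenance, was the most abundant member in every group. Mutant HSC had 115, 102, 118 and 116 RPKM, and wild-type HSC had 107, 99.8 and 108 RPKM. Mutant MPP4 had 54.3, 44.6, 51.5 and 55.3 RPKM, and wild-type MPP4 had 39.9, 38.1 and 39.9 RPKM. Mutant CLP had 25.6, 17.8, 22.4 and 23.7 RPKM, and wild-type CLP had 20.9, 23.3 and 19.8 RPKM. The values of the 3 populations did not overlap in either genotype. Meis1 was lower in MPP4 than in HSC by a log2 difference of -1.12 ± 0.09 in mutant and -1.40 ± 0.11 in wild-type cells (SE; limma adjusted p = 7.15e-09 and 2.77e-09). From MPP4 to CLP it decreased again, by a log2 difference of -1.17 ± 0.09 in mutant and -0.85 ± 0.11 in wild-type cells (SE; limma adjusted p = 9.14e-09 and 1.09e-05). Of neighbouring groups in the order of the means, only mutant and wild-type HSC, and mutant and wild-type CLP, had overlapping values.

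Hoxb5, a reporter gene for long-term stem cells in the mouse, was nearly restricted to HSC among these populations. Mutant HSC had 7.33, 5.22, 5.59 and 7.62 RPKM, and wild-type HSC had 6.0, 4.93 and 9.44 RPKM. Mutant MPP4 had 0.331, 0.392, 0.194 and 0.482 RPKM, and wild-type MPP4 had 0.341, 0.237 and 0.114 RPKM. In CLP it lay between 0.071 and 0.173 RPKM in mutant libraries, and wild-type libraries had 0.047, 0 and 0.278 RPKM. All 14 libraries outside HSC were thus under 0.5 RPKM, and the 7 HSC libraries were all above 4.9 RPKM. The log2 difference of MPP4 from HSC was -2.45 ± 0.16 in mutant and -2.62 ± 0.18 in wild-type cells (SE; limma adjusted p = 1.83e-10 and 6.49e-10). Its size depended on the pseudocount, reaching -3.89 and -4.39 with a pseudocount of 0.1. Between MPP4 and CLP the test made no call in either genotype (limma adjusted p = 0.211 in mutant and 0.675 in wild-type cells). With a pseudocount of 0.1 the mutant difference was called, at -1.10 with an adjusted p of 0.0381, at levels under 0.5 RPKM. With quantile normalization it was 0.03 (adjusted p = 0.930).

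Hoxa10, an Abd-B type Hox gene next to Hoxa9 that expands progenitors when overexpressed, decreased at both steps. Mutant HSC had 10.7, 15.5, 14.4 and 14.7 RPKM, and wild-type HSC had 12.5, 11.7 and 14.2 RPKM. Mutant MPP4 had 7.33, 7.33, 9.80 and 10.2 RPKM, and wild-type MPP4 had 8.10, 5.28 and 6.30 RPKM. Mutant CLP had 2.04, 1.36, 3.18 and 3.63 RPKM, and wild-type CLP had 3.03, 1.11 and 1.40 RPKM. Within each genotype the 3 populations did not overlap. From HSC to MPP4 the log2 difference was -0.62 ± 0.21 in mutant and -0.88 ± 0.24 in wild-type cells (SE; limma adjusted p = 0.0249 and 0.00690). From MPP4 to CLP it was -1.48 ± 0.21 in mutant and -1.45 ± 0.24 in wild-type cells (SE; limma adjusted p = 2.19e-05 and 0.000288). The mutant call of the first step was lost with a pseudocount of 0.1 (limma adjusted p = 0.0652). Leaving out HSC replicate 2, 3 or 4, or MPP4 replicate 1 or 2, of the mutant also ended it, with limma adjusted p between 0.0558 and 0.0715.

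Hoxa9, the Hox gene that drives progenitor expansion with Meis1 in mouse leukaemia models, went the other way at the first step. Mutant HSC had 12.9, 12.7, 14.5 and 15.2 RPKM, and wild-type HSC had 12.4, 10.4 and 16.9 RPKM. Mutant MPP4 had 26.4, 23.0, 21.9 and 24.6 RPKM, and wild-type MPP4 had 19.1, 15.8 and 17.2 RPKM. Mutant CLP had 12.9, 10.4, 13.7 and 15.7 RPKM, and wild-type CLP had 11.7, 11.6 and 10.5 RPKM. In mutant cells every MPP4 library was above every HSC and CLP library, whereas in wild-type cells MPP4 and HSC overlapped. Hoxa9 was higher in MPP4 than in HSC by a log2 difference of 0.75 ± 0.13 in mutant and 0.39 ± 0.14 in wild-type cells (SE; limma adjusted p = 7.06e-05 and 0.0378). It was lower in CLP than in MPP4 by -0.83 ± 0.13 in mutant and -0.58 ± 0.14 in wild-type cells on the log2 scale (SE; limma adjusted p = 4.36e-05 and 0.00968). The wild-type call of the first step was lost without HSC replicate 1 or 2, without MPP4 replicate 1 or 3, and in a fit of the compared groups alone (limma adjusted p between 0.0753 and 0.212; log2 difference 0.24 without HSC replicate 2). The wild-type call of the second step was lost without MPP4 replicate 1 (limma adjusted p = 0.0577).

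Hoxa7, a gene of the middle of the cluster that is raised in leukaemias with KMT2A fusions, varied little over the populations. It had 11 to 12.7 RPKM in mutant HSC and 9.37 to 15.5 RPKM in wild-type HSC. It had 12.0 to 14.9 RPKM in mutant MPP4 and 12.2 to 14.8 RPKM in wild-type MPP4. In CLP it had 12.6 to 13.8 RPKM in mutant and 9.84 to 16.1 RPKM in wild-type libraries. All 6 groups overlapped with their neighbours in the order of the means, and the largest of the 4 step differences was 0.14 on the log2 scale, with a 95% interval of -0.18 to 0.46 (wild type, MPP4 minus HSC).

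Hoxa5, reported to steer human progenitors towards the myeloid and away from the erythroid lineage, was the lowest of the 4 Hoxa members in HSC. Mutant HSC had 4.85, 5.22, 4.83 and 5.30 RPKM, and wild-type HSC had 3.84, 5.81 and 7.56 RPKM. Mutant MPP4 had 4.46, 3.06, 3.93 and 3.08 RPKM, and wild-type MPP4 had 3.65, 2.64 and 3.80 RPKM. In both genotypes every MPP4 value was below every HSC value. The log2 difference was -0.40 ± 0.18 in mutant cells, which limma did not call (adjusted p = 0.0833), and -0.60 ± 0.20 in wild-type cells, which it called (adjusted p = 0.0244; SE). With the mouse as a block the mutant adjusted p from limma was 0.0472. Library weights (adjusted p = 0.0233) and a limma fit of the compared groups alone (0.0289) also gave a call in mutant cells. The wild-type call was lost with quantile normalization, in a fit of the compared groups alone, and without HSC replicate 2 or 3 or MPP4 replicate 2 (limma adjusted p between 0.0631 and 0.153). CLP had 2.16 to 4.16 RPKM in mutant and 3.13 to 4.88 RPKM in wild-type libraries, overlapping with MPP4.

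**Figure D2:**
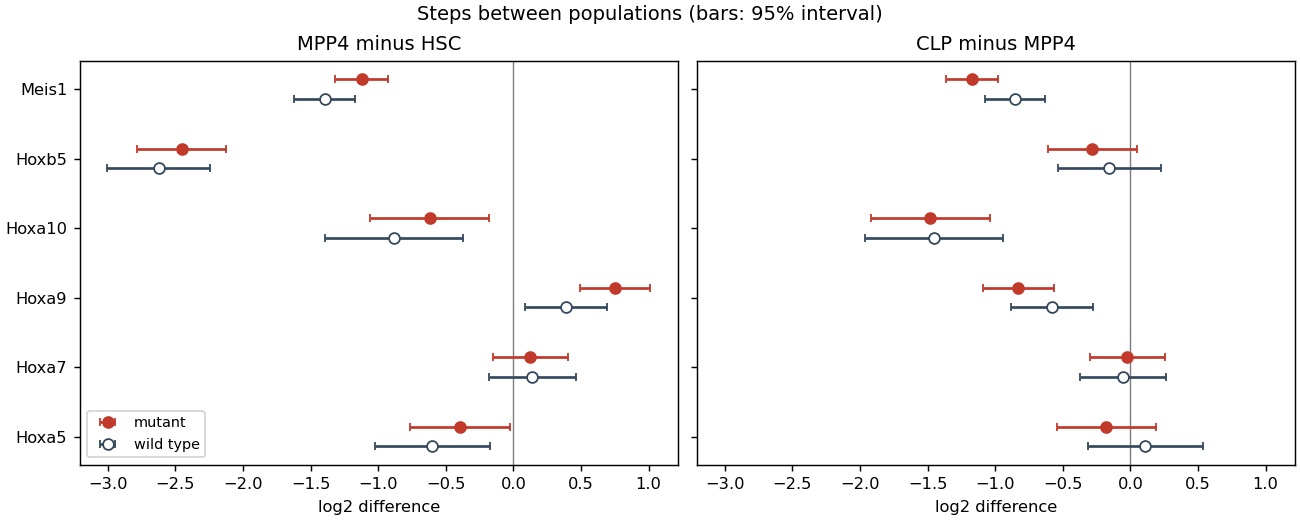
Log2 difference (x axis) of MPP4 from HSC (left) and of CLP from MPP4 (right) for each gene, with filled points for mutant and open points for wild-type cells and bars for the 95% interval of the limma fit. Hoxa9 is the only member above 0 at the first step with an interval that leaves out 0, and Meis1, Hoxa10 and Hoxa9 are below 0 at the second step in both genotypes.

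Because the neighbours Hoxa9 and Hoxa10 moved apart, their proportion changed with the population. Within a library, the ratio of Hoxa9 to Hoxa10 was 1.02 ± 0.160 in mutant HSC (SD, n = 4) and 1.02 ± 0.154 in wild-type HSC (SD, n = 3). In MPP4 it was 2.85 ± 0.637 in mutant and 2.70 ± 0.322 in wild-type libraries, and in CLP it was 5.65 ± 1.63 in mutant and 7.29 ± 3.32 in wild-type libraries. The ratio of Meis1 to Hoxa9 was 8.18 ± 0.548 in mutant HSC and 8.22 ± 1.64 in wild-type HSC. It was 2.15 ± 0.186 in mutant MPP4 and 2.27 ± 0.164 in wild-type MPP4, and in CLP 1.71 ± 0.200 in mutant and 1.89 ± 0.109 in wild-type libraries. The genotypes overlapped in every population for both ratios. The ratio of Hoxa9 to Hoxa7 did not overlap in MPP4, at 1.58 to 2.04 in mutant and 1.16 to 1.57 in wild-type libraries, and it overlapped in HSC and CLP. Along the Hoxa cluster, from Hoxa3 to Hoxa10, the first step in wild-type cells had log2 differences of -0.65 for Hoxa3, -0.60 for Hoxa5, 0.14 for Hoxa7, 0.39 for Hoxa9 and -0.88 for Hoxa10, so the change did not run in one direction with position.

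**Figure D3:**
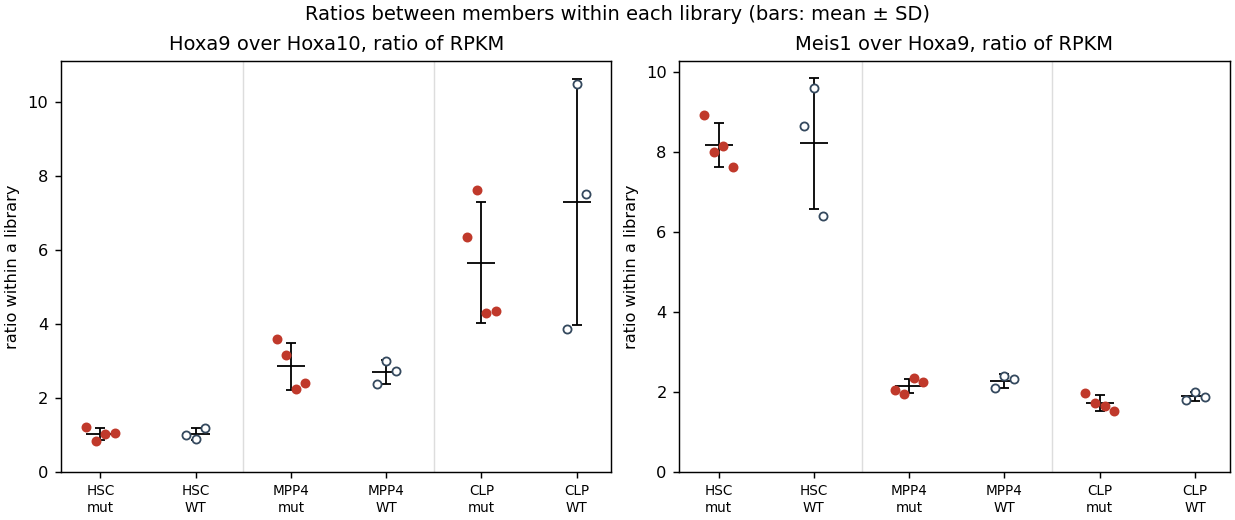
Ratio of RPKM values within each library (y axes from 0) for Hoxa9 over Hoxa10 (left) and Meis1 over Hoxa9 (right), with filled points for mutant (mut) and open points for wild-type (WT) libraries and bars for the mean ± SD. The first ratio goes up from about 1.02 in HSC through MPP4 to CLP, and the second is highest in HSC, with both genotypes overlapping throughout.

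Between genotypes, limma called 0 of 6 members in HSC, where it called 0.0522% of all tested genes, and 0 of 6 in MPP4, where it called 0.217%. In CLP it called 0 of 6 members and 0% of all tested genes. At an unadjusted p under 0.05 the limma fit counted 0 members in HSC, 2 in MPP4 and 0 in CLP, beside 512, 936 and 507 of all tested genes. Groups that did not overlap, with the mutant higher, were seen for 0 members in HSC (3.36% of all tested genes), 2 in MPP4 (6.68%) and 0 in CLP (1.94%). The median log2 difference over the members was 0.04 in HSC, 0.25 in MPP4 and 0.04 in CLP, beside 0.01, 0.02 and 0.00 over all tested genes.

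The pair in MPP4 was Hoxa9 and Meis1. Hoxa9 averaged 24.0 ± 1.93 RPKM in mutant MPP4 and 17.4 ± 1.65 RPKM in wild-type MPP4 (SD, n = 4 and 3), a log2 difference of 0.44 ± 0.14 (SE; limma adjusted p = 0.253). Meis1 averaged 51.4 ± 4.83 RPKM in mutant MPP4 and 39.3 ± 1.04 RPKM in wild-type MPP4 (SD, n = 4 and 3), a log2 difference of 0.38 ± 0.10 (SE; limma adjusted p = 0.168). All 4 mutant libraries exceeded all 3 wild-type libraries for each gene. By unadjusted p, Meis1 ranked 88 and Hoxa9 ranked 175 of 11496 genes. With library weights the limma fit called both, at an adjusted p of 0.0286 for Meis1 and 0.0464 for Hoxa9. Over all alternatives the adjusted p ran between 0.0286 and 0.557 for Meis1 and between 0.0464 and 0.755 for Hoxa9, and the log2 difference stayed between 0.34 and 0.44 for Meis1 and between 0.38 and 0.51 for Hoxa9.

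Markers of other populations differed between the same MPP4 libraries. The summed level of 8 HSC markers, all 8 of them in the table, was 96.1 to 110 RPKM in mutant MPP4 and 42.6 to 63.1 RPKM in wild-type MPP4, with the mutant range above the wild-type range for 3 of the 8. The 6 MPP4 markers summed to 1449 to 1641 RPKM in mutant and 1780 to 2106 RPKM in wild-type MPP4, and the 6 CLP markers in the table to 511 to 618 RPKM in mutant and 823 to 1129 RPKM in wild-type MPP4. The mutant range lay below the wild-type range for 2 of these 6 MPP4 markers and 3 of the 6 CLP markers. Dntt, the lymphoid DNA polymerase gene, stands in both lists, made up most of the CLP sums and was among the markers below in each. It had 482 to 595 RPKM in mutant and 765 to 1055 RPKM in wild-type MPP4, whereas Flt3 and Cd34 overlapped between genotypes. The MPP4 and CLP sums are therefore not separate observations. Erythroid markers, 12 of 14 in the table, summed to 2240 to 4908 RPKM in mutant MPP4 and 495 to 2978 RPKM in wild-type MPP4, with the mutant range above the wild-type range for 5 of the 12. None of these 4 lists had a marker at 0 in every library of a group. Over all tested genes, 6.68% had the mutant MPP4 range above the wild-type range. The share of all tested genes with the mutant range below was smaller. The counts of markers below therefore stand beside a background of less than 6.68%. Among other lists, the mutant range was above for 1 and below for 3 of 6 monocyte markers. It was below for 2 of 6 plasmacytoid dendritic, 1 of 8 neutrophil and 1 of 6 B cell markers, and above for 0. The lists share genes, and Irf8 was counted in both the monocyte and the plasmacytoid dendritic list. The B cell marker was Ebf1, also counted among the CLP markers, with 0.26 to 0.74 RPKM in mutant and 0.77 to 1.00 RPKM in wild-type MPP4. Megakaryocyte, T and NK, mast cell and stromal markers had 0 either way. The megakaryocyte and platelet markers summed to 17.9 to 241 RPKM in mutant MPP4 (median 22.9) and 13.2 to 184 RPKM in wild-type MPP4 (median 13.9). With ranges this wide, 0 either way does not show that these markers were alike or low in every library. In HSC of both genotypes, Hoxa9 was at 10.4 to 16.9 RPKM and Meis1 at 99.8 to 118 RPKM. The part of the marker differences in the Hoxa9 and Meis1 values of MPP4 was not tested.

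The other 4 members overlapped between genotypes in MPP4. The log2 difference of mutant from wild-type MPP4 was 0.36 for Hoxa10 (95% interval -0.12 to 0.83), 0.13 for Hoxb5 (-0.22 to 0.49), 0.09 for Hoxa5 (-0.31 to 0.48) and -0.02 for Hoxa7 (-0.32 to 0.28). In HSC the differences of the 6 genes lay between -0.12 for Hoxa5 and 0.10 for Meis1, whose 95% interval was -0.11 to 0.31. In CLP they lay between -0.20 for Hoxa5 and 0.33 for Hoxa10, whose 95% interval was -0.15 to 0.81. These intervals show what the design could not separate: for Hoxa10 a difference of 0.5 on the log2 scale lay inside the interval in all 3 populations.

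The genotype effects were compared between populations by interaction terms, and limma called 0 of 6 members for MPP4 against HSC (0% of all tested genes), 0 for CLP against MPP4 (0%) and 0 for CLP against HSC (0.0087%). At an unadjusted p under 0.05 the counts were 0, 1 and 0 members, beside 436, 442 and 420 of all 11496 tested genes. The genotype effect on Hoxa9 was greater in MPP4 than in HSC by 0.36 ± 0.19 and that on Meis1 by 0.27 ± 0.14 on the log2 scale (SE; limma adjusted p = 1.00 for both). That on Meis1 was smaller in CLP than in MPP4, at -0.32 ± 0.14 (SE; limma adjusted p = 0.998). A genotype difference particular to MPP4 was therefore not shown.

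**Figure D4:**
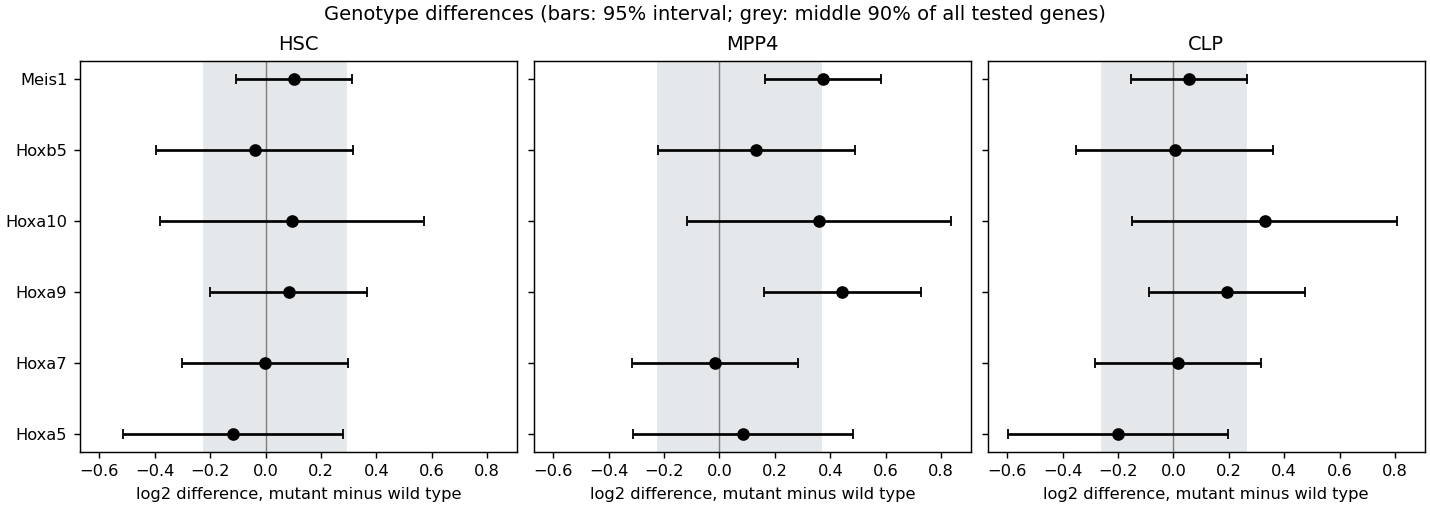
Log2 difference of mutant from wild-type cells (x axis) for each gene in HSC, MPP4 and CLP, with the 95% interval of the limma fit and a grey band for the middle 90% of all tested genes. In MPP4 the intervals of Hoxa9 (0.44) and Meis1 (0.38) lie above 0, and in HSC and CLP every interval includes 0.

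Other Hox and TALE genes gave the surroundings of the 6. Of 39 genes in the mouse Hox clusters 7 were in the table, the additional ones being Hoxb2 and Hoxa3, and of 10 TALE genes considered 9 were in the table and 8 passed the filter. Meis2, the gene that did not pass, had at most 0.918 RPKM in any library. Of the 9 other genes that passed, 2 were higher and 2 lower in MPP4 than in HSC in mutant cells, and 2 were higher and 4 lower in wild-type cells. Over all tested genes the shares were 16% higher and 23.1% lower in mutant cells and 16.1% higher and 23.3% lower in wild-type cells. Between genotypes 0 of the 9 were called. Ranges that did not overlap, with the mutant higher, were seen for 1 of the 9 in HSC (Pbx2), 2 in MPP4 (Hoxa3 and Tgif1) and 1 in CLP (Tgif2), beside 3.36%, 6.68% and 1.94% of all tested genes.

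Hoxb2, an anterior gene of the Hoxb cluster, had 8.66 to 13.5 RPKM in mutant HSC and 7.28 to 14.6 RPKM in wild-type HSC. It fell to 0.514 to 1.81 RPKM in mutant MPP4 and 0.730 to 1.55 RPKM in wild-type MPP4, with log2 differences of -2.47 and -2.33 (limma adjusted p = 2.71e-08 and 4.83e-07). At the first step in wild-type cells both Hoxb genes and 3 of the 5 Hoxa genes (Hoxa3, Hoxa5 and Hoxa10) were lower, Hoxa9 was higher and Hoxa7 was not called. Hoxa3, an anterior gene of the Hoxa cluster whose span contains Hoxa5, had 1.91 to 2.63 RPKM in mutant MPP4 and 1.37 to 1.77 RPKM in wild-type MPP4. These ranges did not overlap, and the log2 difference of 0.28 was not called (limma adjusted p = 0.682).

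Among the PBX genes, whose proteins bind DNA with HOX and MEIS proteins, Pbx3 was highest in HSC and Pbx2 and Pbx4 varied little. Pbx3 averaged 1.31 ± 0.405 RPKM in mutant MPP4 and 4.63 ± 0.359 RPKM in mutant HSC (SD, n = 4 each). In wild-type cells it averaged 1.15 ± 0.355 RPKM in MPP4 and 4.17 ± 0.842 RPKM in HSC (SD, n = 3 each). It was lower in MPP4 than in HSC by -1.30 in mutant and -1.27 in wild-type cells on the log2 scale (limma adjusted p = 1.07e-06 and 1.03e-05). Pbx4 averaged between 14.5 and 16.7 RPKM over the 6 groups. Between genotypes, Pbx2 had 9.61 to 11.3 RPKM in mutant and 8.52 to 9.17 RPKM in wild-type HSC, ranges that did not overlap, with a log2 difference of 0.23 that was not called (limma adjusted p = 1.00). It had 9.45 to 12.0 RPKM in mutant and 7.88 to 9.49 RPKM in wild-type MPP4, with a log2 difference of 0.27 and an adjusted p of 0.558 from limma.

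Pknox1, whose protein PREP1 competes with MEIS proteins for PBX partners, and Tgif1, a TALE repressor known from TGF-beta signalling, were higher in MPP4. Pknox1 averaged 22.8 ± 1.88 RPKM in mutant MPP4 and 17.8 ± 2.26 RPKM in mutant HSC (SD, n = 4 each), and its log2 difference was 0.34 in both genotypes (limma adjusted p = 0.0162 in mutant and 0.0367 in wild-type cells). Tgif1 averaged 29.2 ± 0.452 RPKM in mutant MPP4 and 20.0 ± 1.65 RPKM in mutant HSC (SD, n = 4 each), with log2 differences of 0.53 in mutant and 0.44 in wild-type cells (limma adjusted p = 0.000538 and 0.00853). Meis3 averaged 2.70 ± 0.692 RPKM in mutant MPP4 and 3.20 ± 0.499 RPKM in mutant HSC, with no call. In wild-type cells Meis3 averaged 1.90 ± 0.592 RPKM in MPP4 and 4.91 ± 2.45 RPKM in HSC. This log2 difference of -0.97 was called (limma adjusted p = 0.00753). The wild-type HSC values were 3.00, 4.05 and 7.67 RPKM, so the mean leaned on replicate 3. The genotype effect on Meis3 in MPP4 minus that in HSC was 0.77 ± 0.36 on the log2 scale (SE) and was not called. A difference between genotypes in this step was therefore not shown. Tgif2 averaged between 4.54 and 5.75 RPKM over the 6 groups. Thus the other TALE genes did not follow Meis1 as a group. Pbx3 was called lower in MPP4 than in HSC in both genotypes, and Meis3 in wild-type cells only. Pbx2, Pbx4 and Tgif2 were not called, and Pknox1 and Tgif1 were higher.

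**Figure D5:**
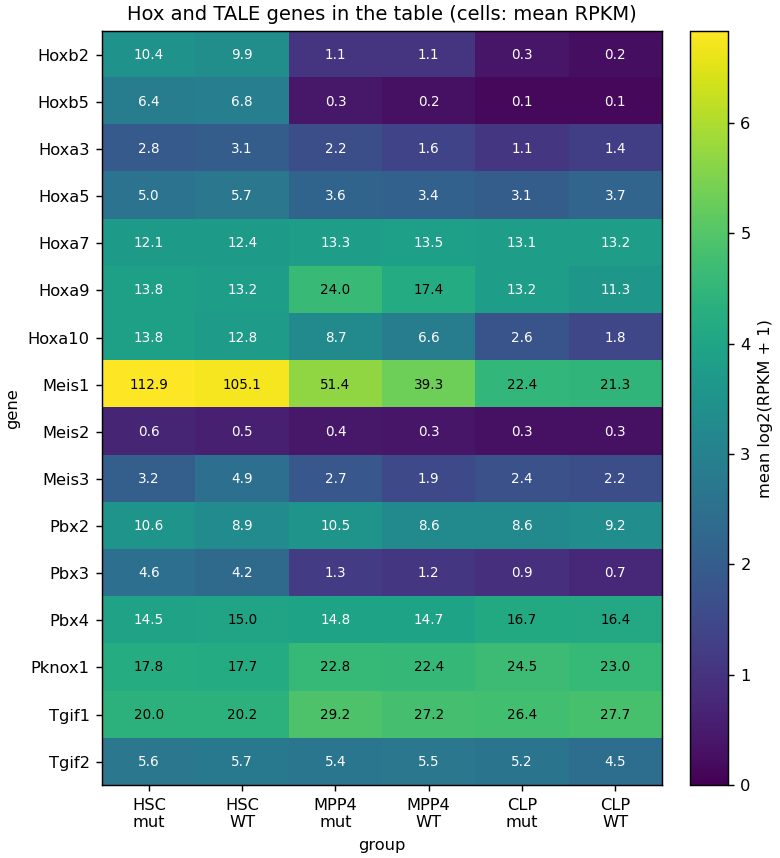
Mean level of 16 Hox and TALE genes of the table (rows) in the 6 groups (columns, mutant left of wild type in each population); colour gives mean log2(RPKM + 1) and the printed values are mean RPKM. Hoxb2, Hoxb5, Pbx3 and Meis1 are brightest in HSC, Hoxa9 in MPP4, and Hoxa7, Pbx2, Pbx4 and Tgif2 change little.

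Chromatin regulators known to act on Hox clusters were counted from lists. Of 19 kept activators of KMT2A, DOT1L and related complexes, 2 were higher and 2 lower in wild-type MPP4 than in wild-type HSC, which is no more than the 16.1% and 23.3% over all tested genes. Mllt3, which encodes AF9, a reader in the DOT1L complex known for stem cell maintenance, had 1.41 ± 0.221 RPKM in wild-type MPP4 and 13.6 ± 6.31 RPKM in wild-type HSC (SD, n = 3 each; limma adjusted p = 2.93e-08). Aff4, a scaffold of the super elongation complex, had 8.21 ± 0.621 RPKM in wild-type MPP4 and 12.2 ± 1.46 RPKM in wild-type HSC (limma adjusted p = 0.00262). Kmt2a itself had 7.69 ± 1.30 RPKM in wild-type MPP4 and 12.3 ± 5.56 RPKM in wild-type HSC, and was not called (limma adjusted p = 0.110).

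Of 17 kept Polycomb genes, 5 were higher and 4 lower in wild-type MPP4, beside 16.1% and 23.3% of all tested genes. The share that was lower was thus that of the background, and the share that was higher was above it. The list was not tested as a set. Among the chromodomain subunits, which bind the Polycomb histone mark, Cbx2 had 28.0 ± 1.45 RPKM in wild-type MPP4 and 13.1 ± 3.39 RPKM in wild-type HSC. Cbx6 and Cbx7 went the other way, with 14.4 ± 1.09 and 3.27 ± 0.0563 RPKM in wild-type MPP4 and 30.05 ± 5.83 and 7.75 ± 2.93 RPKM in wild-type HSC (SD, n = 3 each). The limma adjusted p was 8.20e-06 for Cbx2, 3.04e-07 for Cbx6 and 0.000446 for Cbx7. Of 20 genes described as HOXA9 or MEIS1 targets, 9 were higher and 7 lower in wild-type MPP4, beside the same 16.1% and 23.3%, so both directions stood in the same list. The largest differences of that list were those of Flt3, Il7r and Mecom. The cytokine receptor genes Flt3 and Il7r were higher by 4.61 and 2.64 on the log2 scale, and the stem cell factor Mecom was lower at -2.45. Flt3 encodes FLK2, which the sorting gate required to be absent in HSC and present in MPP4. Its direction was therefore set by the sorting and is no result about target genes. Between genotypes limma called 0 genes of the 3 lists in any population. At an unadjusted p under 0.05 in MPP4 there were 0 activators, 2 Polycomb genes and 7 of the 20 target genes, beside 936 of all 11496 tested genes. The median log2 difference of the target genes was 0.11, beside 0.02 over all tested genes. Of the target genes, 4 (Flt3, Cd34, Il7r and Mecom) also stand in the HSC, MPP4 or CLP marker lists. The sums of these lists did not overlap between mutant and wild-type MPP4, and Dntt is in both the MPP4 and the CLP sum.

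Across all 21 libraries, Hoxa10 and Meis1 correlated at 0.93 (Pearson, log2 scale) and Hoxb5 and Meis1 at 0.90, whereas Hoxa9 correlated with Meis1 at 0.16 and with Hoxa7 at 0.21. These libraries share 6 groups, so the coefficients mostly carry the differences between populations. The genes whose pattern was most like that of Meis1 were Def8, Ifih1 and Sord, each at 0.99. For Hoxb5 they were Tns2, Adamtsl5 and Efna1, each at 0.99, and for Hoxa10 they were the homeobox gene Nkx2-3 at 0.99, Aldh2 at 0.97 and the growth factor gene Hgf at 0.97. For Hoxa9 they were Man1a at 0.91, Vldlr at 0.88 and Iqgap1 at 0.86. Agpat3, Pcbp4 and Vsig2 came closest to Hoxa5, at 0.84 to 0.86, and Ctdsp1, Usp21 and Gnai2 to Hoxa7, at 0.78 to 0.79.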

How the data were processed

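Polyadenylated RNA of sorted cells was copied to cDNA by a SMART-seq kit and tagmented, per the labels' protocols. The authors deposited RPKM values in 1 table. Alignment used STAR and mm10, per the submitters' processing notes. Not given in the sources used here are the STAR version, counting tool, annotation, strand setting and the rule behind the 11628 genes. Low values were checked for whole-read steps, but at best 31.2% to 45.0% per library came out whole (tolerance 0.1), so no reads were recovered and precision rests on the spread between libraries. A spreadsheet had turned 16 symbols into dates, restored through Entrez identifiers.

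Genes with at least 1 RPKM in at least 3 libraries were kept (11496; 132 removed). limma 3.58.1 (R 4.3.3, variance trend) fitted 6 group means to log2(RPKM + 1) over all 21 libraries, with 15 residual and 4.62 prior degrees of freedom, a scale on which changes at low RPKM appear smaller than they are. Tests were two-sided over 10 comparisons, with Benjamini-Hochberg adjustment within each and calls under 0.05. The script was tested on simulated data. Labels give separate mice; the replicate number was read as the mouse, which is an inference, and mutant number 4 is labelled 10 weeks in CLP and 12 weeks in HSC and MPP4. Deviations of same-numbered libraries correlated above 0.1 in every pair for mutant MPP4 and HSC (0.12 to 0.33) and for wild-type CLP and MPP4 (0.22 to 0.27). The same held for CLP and HSC (0.10 to 0.48 in mutant, 0.13 to 0.34 in wild type). It did not hold for wild-type MPP4 and HSC (lowest 0.094) or mutant CLP and MPP4 (lowest 0.096). Same-numbered mutant and wild-type libraries, which are of different mice, correlated at -0.15 to 0.43 in HSC, 0.02 to 0.21 in MPP4 and 0.04 to 0.45 in CLP. These correlations therefore cannot establish that the number is the mouse.

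The members and lists were chosen with earlier results of these data known. Named were all members, every other Hox and TALE gene in the table except a gene that is not reported here, and of the other lists those called between genotypes (0) or else the 3 with the largest wild-type difference of MPP4 from HSC; the 3 genes most like a member are those with the highest Pearson correlation. The 4 motifs were searched on both strands of RefSeq promoter windows. Alternatives were 2 other pseudocounts (0.1, 0.5), no filter, a mean of at least 5 RPKM, quantile and median-ratio scaling, library weights, sex and age terms, replicate blocks, fits of the compared groups alone, and leaving out each library.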

Additional observations from a re-analysis of the deposited data

How the results depend on the processing

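With library weights 2 members were called between genotypes in MPP4 (Hoxa9 and Meis1) in place of 0, and 184 genes in place of 25. In the wild-type step from HSC to MPP4, 3 members were called in place of 5 in a fit of the compared groups alone, and 3 of the 4 members that passed a mean of at least 5 RPKM; leaving out a library gave 3 to 4. With the replicate block (mouse as a random block, correlation 0.21) Hoxa5 was called in the mutant step from HSC to MPP4 (limma adjusted p = 0.0472), and no other member's call changed under it. No called member changed direction under any alternative run. Over the 42 member differences and their alternatives, 751 values stayed on their side of the threshold or within the spread, 17 lost a call, 6 gained one and 6 moved. The counts over all tested genes between genotypes ran between 0 and 21 in HSC (6 as reported), between 0 and 184 in MPP4 (25 as reported) and between 0 and 5 in CLP (0 as reported). Depth is unknown, so no counting error can be given for Hoxb5 outside HSC.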
